A study of Tupaia belangeri chinensis with 36 samples.

Results

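Noncoding transcripts that carry the name of a voltage-gated channel gene, or of a related channel gene, were examined across the layers of the fetal cortex of the Chinese tree shrew. A member was any annotated feature whose name starts with LINC- or contains -AS- and whose gene symbol starts with KCN, with SCN and a number, with CACN, or with HCN and a number. Of 76871 features, 539 met this rule, of which 284 were LINC features and 255 were AS features. In common usage LINC stands for long intergenic noncoding RNA and AS for antisense, but the convention behind these names is not given in the sources used here. Layers had been cut from Nissl-stained sections by laser microdissection, and poly-A selected RNA was sequenced. Of stage E28, 2 libraries were available for each of the ventricular zone (VZ), inner and outer subventricular zone (ISVZ and OSVZ), intermediate zone (IZ), cortical plate (CP) and marginal zone (MZ). Stage E37 was represented by an undivided CP library, 2 libraries each for the inner and outer parts of the CP (CPi and CPo) and for the MZ, and 3 for the IZ, and its germinal layers were not analysed here. Stage E42 had 1 library from the VZ and 2 from every other layer (ISVZ, OSVZ, IZ, CPi, CPo and MZ), because the file labelled as the second VZ replicate at E42 held the same counts as the second VZ replicate at E28 and was left out. All 35 libraries came from fetal cortex, and the labels name no genotype, treatment or sex.

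Voltage-gated channels open or close with the potential across the cell membrane. Sodium channels (SCN genes) carry the upstroke of the action potential, calcium channels (CACN genes) couple depolarization to calcium entry, potassium channels (KCN genes) repolarize the cell and set its firing, and HCN channels carry pacemaker current. In the developing cortex, progenitors divide in the VZ and subventricular zones, and their neurons cross the IZ, settle in the CP and gain excitability as they mature, while the MZ above the CP holds Cajal-Retzius cells. Many genes of the brain have noncoding RNAs transcribed beside or across from them, and such RNAs can be poly-adenylated.

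The label covered more than voltage-gated pores. The pore subunits of voltage-gated potassium channels gave their names to 174 members, of which 40 had counts high enough to be tested. Calcium- or sodium-activated potassium channels had 95 members with 19 tested, a group into which KCNU1 (20 members, 2 tested) was also put by its name. Auxiliary subunits of voltage-gated potassium channels had 56 with 12 tested, 2-pore-domain potassium channels 41 with 11 tested, and inward rectifiers 39 with 5 tested. On the calcium side there were 42 members named after pore subunits with 6 tested, 29 after alpha2delta subunits with 2 tested, 19 after gamma subunits with 4 tested and 9 after beta subunits with 2 tested. Sodium pore subunits had 23 members with 5 tested, sodium beta subunits 6 with 4 tested, and HCN channels 6 with 1 tested. Inward rectifiers and 2-pore-domain channels are not gated by voltage in the strict sense, so the set is best read as named after the wider channel superfamily. The members took their names from 113 gene symbols, and 104 of these were among the 130 such channel symbols in the RefSeq gene table of the tree shrew (assembly TupChi_1.0). The symbols with most members were KCNMB2 with 25, KCNIP4 with 22, KCNA4 with 21 and KCNU1 with 20.

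Most members were barely detected. No count was found in any of the 35 libraries for 167 members, 372 had at least 1 count, and 8 had a count in every library. A filter on low counts left 111 members (39 LINC and 72 AS features), which is 20.59% of the members, against 34.94% of all features and 19.93% of the 54371 LINC and AS features as a whole. Of the 261 members with a count that did not pass, the median had 7 counts over all libraries and 64 were seen in a single library. The tested members had mean levels between 0.0189 and 4.04 CPM (the standard per-library scaling of counts, here to the normalised library size), with a median of 0.105 CPM. Because transcript lengths were not in the files, CPM values are compared between libraries for a given member and not between members. The members described in full were set by the rule given with the processing. LINC-KCNV1-2, KCNN2-AS-2, KCNN2-AS-8, KCNIP3-AS-2, KCNQ3-AS-2, KCNAB1-AS-9, LINC-SCN2B-1, LINC-KCNS3-3, LINC-KCNMB2-9, LINC-KCNJ10-1 and LINC-CACNG2-1 fall outside it and were chosen after their values were seen.

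Libraries held between 17932690 and 102042743 counts on features (median 31756620), so that 1 read was worth between 0.00957 and 0.0556 CPM. A value of 0 in a library therefore does not show that the transcript was absent. The members together made up 0.00111% to 0.0058% of a library. Reads that fell on overlapping features and were not assigned made up 14.99% to 19.06% of the lines counted. The strand setting of the counting is not given in the sources used here, so reads of an AS feature and of the channel gene it is named after cannot be told apart. Coding features carry identifiers with no symbol in the reference table (0 of 21043 were found in it), so the channel genes themselves and the markers of the labelled layers and of other cell types were not analysed here. Bulk counts also cannot separate fewer cells of a type from less RNA per cell.

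The summed level of all members was lowest in the germinal layers of E28. In the 6 germinal libraries of E28 (VZ, ISVZ and OSVZ) it was 11.8 CPM at the lowest, 15.5 at the median and 21.1 at the highest. In the 6 neuron-rich libraries of E28 (IZ, CP and MZ) it was 25.2, 31.5 and 37.6 CPM, and in the 10 neuron-rich libraries of E37 it was 28.6, 32.4 and 38.1 CPM. The germinal libraries of E28 were therefore all below the neuron-rich ones of the same stage. At E42 the sum was 31.5, 41.7 and 49.6 CPM in the 5 germinal libraries and 36.8, 43.0 and 51.6 CPM in the 8 neuron-rich libraries, so the ranges overlapped. Depth moved with stage as well: the median library had 34454872 counts in the germinal layers of E28, 29010053 and 25744685 in the neuron-rich layers of E28 and E37, and 36896538 and 44586757 in the germinal and neuron-rich layers of E42. Reads on no feature were 8.56% to 11.3% of lines in the germinal layers of E28 and 11.8% to 14.1% in those of E42. The part of depth and of reads outside features in these sums was not tested. The sum of all LINC and AS features did not follow that of the members, with medians of 17710 and 17260 CPM in the germinal and neuron-rich layers of E28, 18230 CPM in the neuron-rich layers of E37, and 17490 and 18090 CPM in the germinal and neuron-rich layers of E42.

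**Figure D1:**
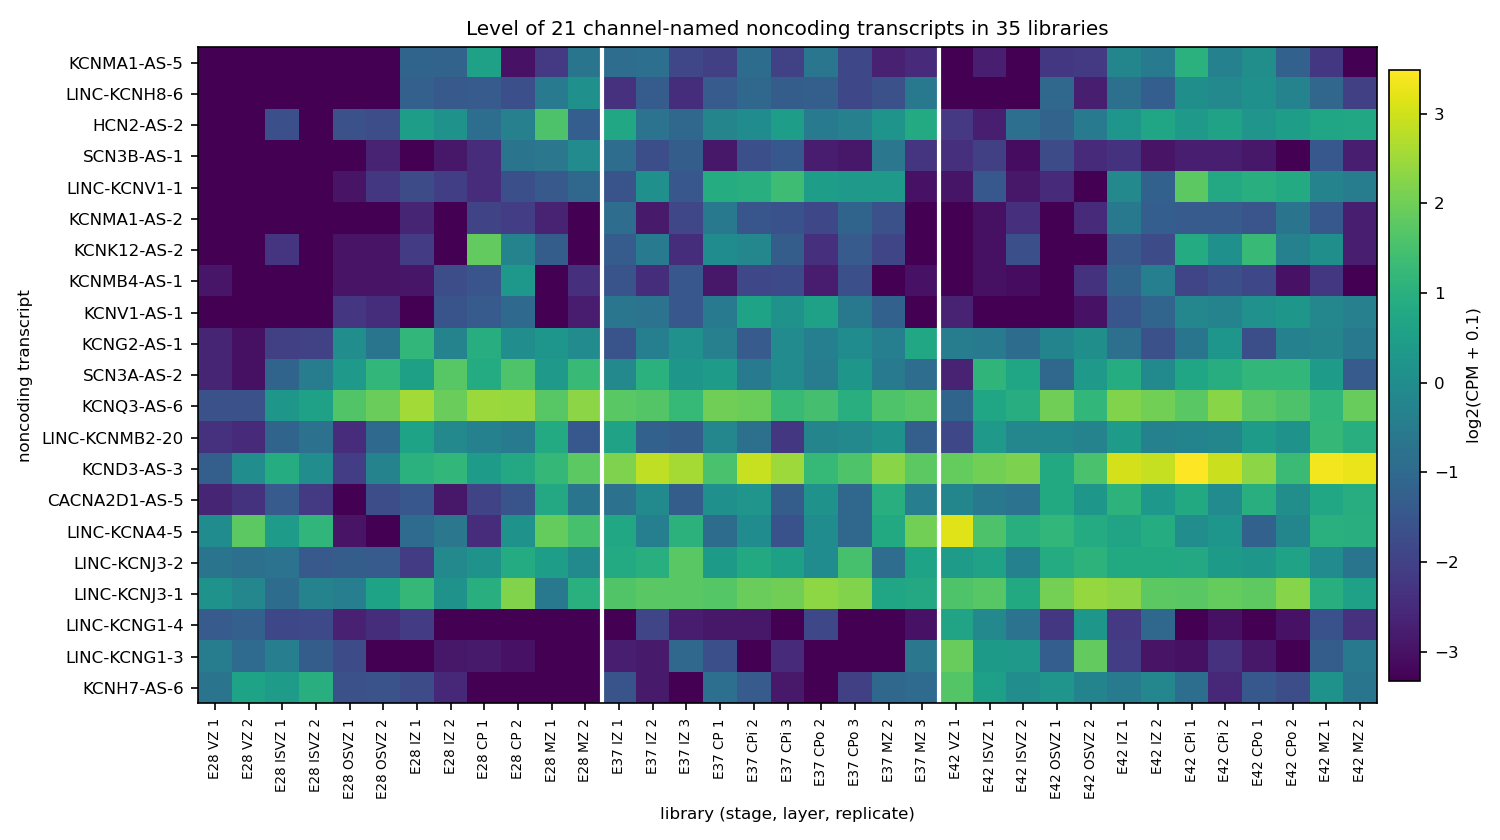
Level of 21 named members (rows) in each of the 35 libraries (columns, ordered by stage and layer), on a colour scale of log2(CPM + 0.1). Rows are ordered by the germinal minus neuron-rich difference at E28, so members that were higher in the neuron-rich layers and members that were higher in the germinal layers of E28 stand at opposite ends.

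The first comparison asked how the members were divided between the progenitor layers and the neuron-rich layers at the earliest stage. At E28, 25 of the 111 tested members were higher in the neuron-rich layers and 4 were higher in the germinal layers. Over all 26858 features tested, 17.1% were called higher in the neuron-rich layers and 18.5% in the germinal layers, against 22.5% and 3.6% of the members. Over all tested LINC and AS features the shares were 10.3% and 6.35%. Calls rest on edgeR's quasi-likelihood test with Benjamini-Hochberg adjustment over all features tested, at a threshold of 0.05. The median log2 difference (germinal minus neuron-rich) was −1.18 over the members and −0.05 over all features. The members higher in the neuron-rich layers came from most families: 7 named after pore subunits of voltage-gated potassium channels, 5 after calcium- or sodium-activated potassium channels, 3 after auxiliary potassium subunits, 2 each after calcium pore subunits, inward rectifiers and 2-pore-domain channels, and 1 each after HCN channels, calcium gamma subunits, sodium pore subunits and sodium beta subunits.

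Among the members with counts in every layer, KCNQ3-AS-6 had the smallest adjusted p at E28. KCNQ3 is a pore subunit of the M-current, which restrains repetitive firing. KCNQ3-AS-6 measured 0.223 CPM in both VZ libraries, 1.12 and 1.4 in the ISVZ, 3.03 and 3.73 in the OSVZ, 5.77 and 3.73 in the IZ, 5.41 and 5.3 in the CP, and 3.19 and 4.85 in the MZ. The VZ was lowest, the ISVZ came next, and the OSVZ reached the lower end of the neuron-rich layers, so the sides overlapped. The log2 difference was −2.24 ± 0.26 (SE, 6 against 6 libraries, edgeR adjusted p = 3.85e-08). SCN3A-AS-2 had the same order of layers, and SCN3A is the sodium channel pore that dominates in fetal brain. It measured 0.0638 and 0.0247 CPM in the VZ, 0.36 and 0.639 in the ISVZ, 1.18 and 2.17 in the OSVZ, 1.35 and 3.18 in the IZ, 1.72 and 2.95 in the CP, and 1.15 and 2.34 in the MZ. Its log2 difference was −2.63 ± 0.45 (edgeR adjusted p = 1.85e-05), and with the VZ left out of the germinal mean it was −1.19, which did not pass (edgeR adjusted p = 0.0504).

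KCND3-AS-3 and KCNG2-AS-1 were also higher in the neuron-rich layers. KCND3 forms an A-type potassium channel that opens transiently below the firing threshold, and KCND3-AS-3 was 0.138, 0.819 and 1.77 CPM at the lowest, median and highest germinal library against 1.23, 2.06 and 3.31 CPM in the neuron-rich libraries (log2 difference −1.495 ± 0.32, edgeR adjusted p = 0.000306). KCNG2 is a silent subunit that modifies other potassium channels and forms none on its own. KCNG2-AS-1 measured 0.0638 and 0.0247 CPM in the VZ, 0.144 and 0.152 in the ISVZ and 0.908 and 0.521 in the OSVZ, while the neuron-rich libraries lay between 0.726 and 2.16 CPM. Only 1 OSVZ library thus reached the neuron-rich range, and the log2 difference was −2.87 ± 0.51 (edgeR adjusted p = 3.83e-05). LINC-KCNJ3-1 and LINC-KCNJ3-2 carry the name of a G-protein-gated inward rectifier that slows firing, and their log2 differences were −1.17 ± 0.32 and −1.21 ± 0.42 (edgeR adjusted p = 0.00417 and 0.0241). The call of LINC-KCNJ3-2 ended under 7 of 19 alternatives, with −0.59 without replicate 2 of the IZ (edgeR adjusted p = 0.375). LINC-KCNMB2-20, named after a beta subunit of the large-conductance calcium-activated channel, measured 0.0742 to 0.487 CPM in the germinal libraries and 0.265 to 1.7 CPM in the neuron-rich ones (log2 difference −2.11 ± 0.53, edgeR adjusted p = 0.00181), and was not called with the VZ left out (−1.48, edgeR adjusted p = 0.0556).

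Several members were at 0 in whole germinal layers, where a fitted fold change depends on the prior count, and they are given by their levels. KCNMA1-AS-5 had 0 counts in all 6 germinal libraries of E28 and 72 counts in the neuron-rich libraries, at 0.354 and 0.345 CPM in the IZ, 1.39 and 0.0271 in the CP, and 0.121 and 0.529 in the MZ. KCNMA1 is the pore of the large-conductance calcium-activated potassium channel. Against a floor of 3 counts over the germinal libraries, KCNMA1-AS-5 was at least 27.6-fold higher in the neuron-rich layers (edgeR adjusted p = 3.42e-05). Replicate 1 of the CP held 34 of the 72 counts, and without it the bound was 16.9-fold. KCNMA1-AS-5 passed the filter on low counts only through neuron-rich libraries, so the filter favoured this direction. LINC-KCNH8-6, named after a channel of the Elk family, likewise had 0 counts in the 6 germinal libraries and measured 0.322 and 0.276 CPM in the IZ, 0.287 and 0.216 in the CP, and 0.607 and 0.97 in the MZ. It was at least 28.7-fold higher in the neuron-rich layers (edgeR adjusted p = 1.91e-06), and for both members the sides did not overlap. HCN2-AS-2, named after a pacemaker channel, was at 0 in both VZ libraries and 1 ISVZ library, at 0.216 CPM in the other ISVZ library and at 0.22 and 0.203 CPM in the OSVZ. Its neuron-rich libraries all lay above that, at 0.309, 0.839 and 2.91 CPM at the lowest, median and highest (ratio of mean CPM 10.4, edgeR adjusted p = 1.32e-05). Replicate 1 of the MZ held 96 of its 208 neuron-rich counts, and without it the ratio was 7.00.

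The silent subunit KCNV1 gave its name to LINC-KCNV1-1, which had 5 counts in the germinal libraries and 38 in the neuron-rich ones (mean 0.0239 and 0.217 CPM, edgeR adjusted p = 0.00138), and to KCNV1-AS-1, with 7 and 30 counts (edgeR adjusted p = 0.0451). The call of KCNV1-AS-1 ended under 13 of 18 alternatives, among them each of the 12 E28 libraries left out except replicate 1 of the IZ and of the MZ, with adjusted p from 0.0503 to 1. KCNK12-AS-2, named after a 2-pore-domain channel, had 5 germinal counts against 126 (mean 0.0274 and 0.775 CPM, edgeR adjusted p = 0.00863), and its libraries of the CP, at 3.49 and 0.73 CPM, stood above all others. The ratio of its mean CPM was 28.2, and 8.48 without replicate 1 of the CP. KCNMA1-AS-2, KCNMB4-AS-1 and SCN3B-AS-1 had 0, 3 and 2 germinal counts against 13, 57 and 60, and KCNMB4 and SCN3B are beta subunits of the large-conductance potassium channel and of sodium channels (edgeR adjusted p = 0.019, 0.0135 and 0.007). The ratio of the summed levels was 21.8 for KCNMB4-AS-1 (95% counting interval 7.1 to 109) and 34.5 for SCN3B-AS-1 (9.13 to 291), and KCNMA1-AS-2 was at least 4.98-fold higher. Replicate 2 of the CP held 42 of the 57 counts of KCNMB4-AS-1, and without it the ratio was 7.26. These intervals and floors cover counting error only. LINC-KCNV1-1, KCNV1-AS-1, KCNK12-AS-2, KCNMA1-AS-2, KCNMB4-AS-1 and SCN3B-AS-1 passed the filter on low counts only through neuron-rich libraries. The filter favoured this direction for them, so their p-values and ratios are not independent support for it. Leaving out replicate 1 of the IZ or of the MZ ended the calls of KCNK12-AS-2 and KCNMA1-AS-2, leaving out replicate 2 of the IZ ended those of KCNMB4-AS-1 and SCN3B-AS-1, and leaving out replicate 2 of the MZ ended that of KCNMB4-AS-1, with edgeR adjusted p = 0.0696 for KCNMB4-AS-1 without that IZ library and 1 in each other case.

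The members higher in the germinal layers of E28 included KCNH7-AS-6, LINC-KCNG1-3 and LINC-KCNG1-4. KCNH7 belongs to the Erg family of potassium channels. KCNH7-AS-6 measured 0.51 and 1.44 CPM in the VZ, 1.23 and 1.83 in the ISVZ, 0.22 and 0.232 in the OSVZ and 0.193 and 0.0691 in the IZ, and had 0 counts in the CP and MZ. Every germinal library lay above every neuron-rich one, with a ratio of mean CPM of 20.8 (edgeR adjusted p = 1.04e-05). KCNG1 is another silent subunit, and LINC-KCNG1-3 measured 0.638 and 0.42 CPM in the VZ, 0.649 and 0.304 in the ISVZ and 0.193 and 0 in the OSVZ, with 3 counts in all neuron-rich libraries (ratio 20.9, 95% counting interval 6.87 to 104, edgeR adjusted p = 0.00292). LINC-KCNG1-4 had 38 germinal and 4 neuron-rich counts (mean 0.186 and 0.0215 CPM, edgeR adjusted p = 0.00925). The call of LINC-KCNG1-3 ended without replicate 1 of the OSVZ, where the remaining OSVZ library had no count (edgeR adjusted p = 1).

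With the VZ left out of the germinal mean, 15 members were higher in the neuron-rich layers of E28 and 4 in the germinal layers, and the calls of KCNK12-AS-2, KCNMA1-AS-2 and KCNV1-AS-1 were among those that ended (edgeR adjusted p = 0.0785, 0.0577 and 0.2). Without 1 library at a time, the number called ranged from 21 to 29.

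**Figure D2:**
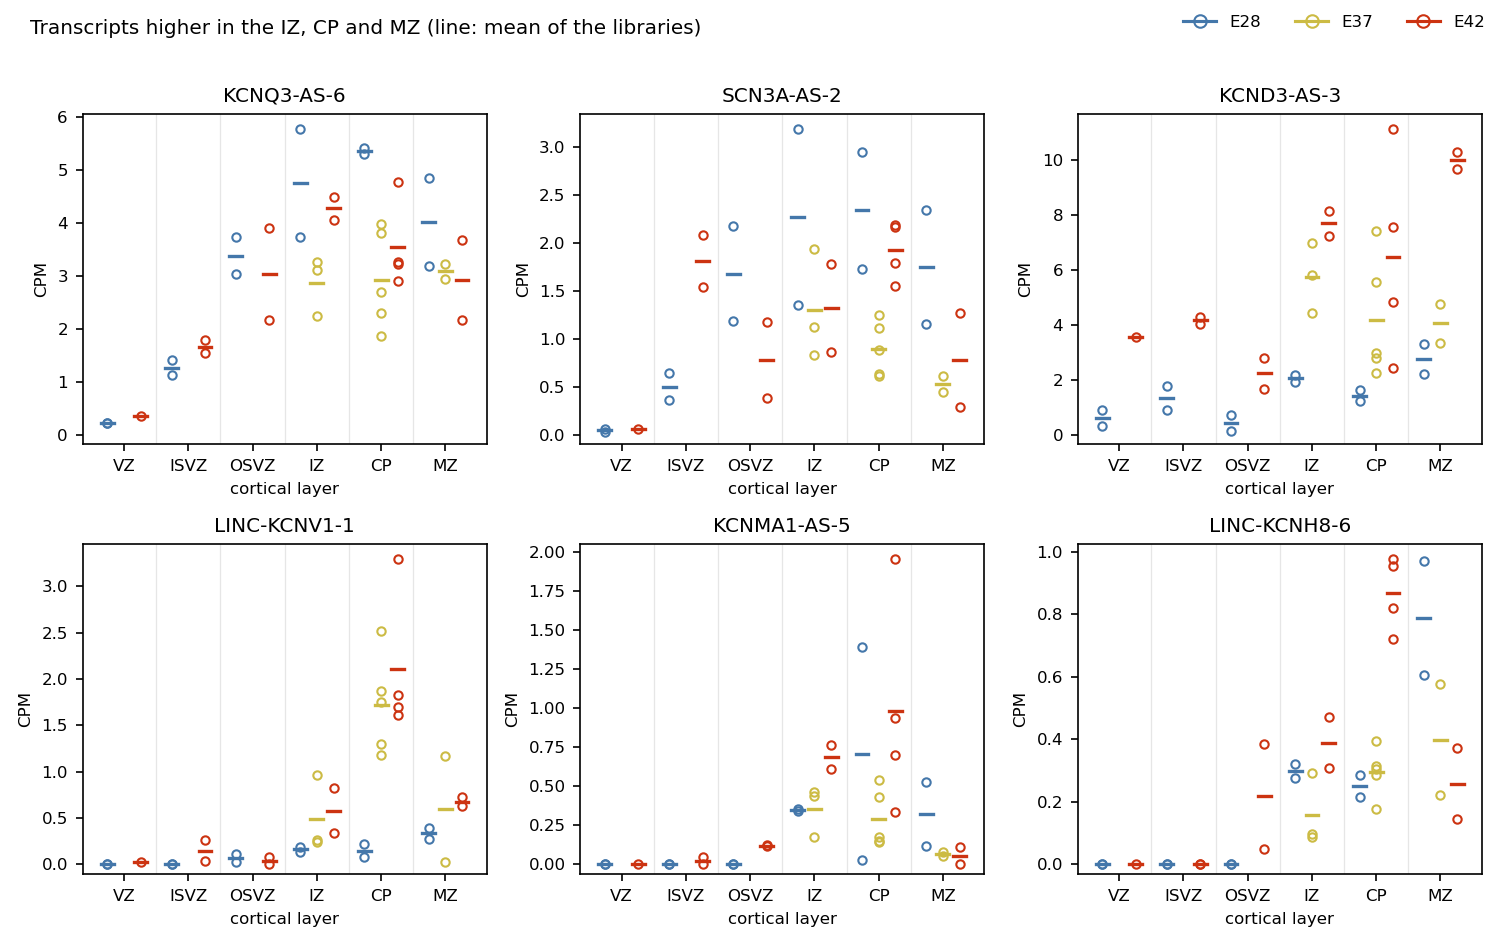
CPM of KCNQ3-AS-6, SCN3A-AS-2, KCND3-AS-3, LINC-KCNV1-1, KCNMA1-AS-5 and LINC-KCNH8-6 by layer and stage, with 1 point per library and a line at the mean of each layer. The VZ points of E28 lie at or near the bottom of each panel, and KCND3-AS-3 is higher at E42 than at E28 in the germinal and the neuron-rich layers.

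At E42, of the 111 members, 13 were higher in the neuron-rich layers and 10 in the germinal layers (11.7% and 9.01%), against 14.4% and 15.6% of all features and 4.73% and 7.31% of LINC and AS features. That division depended on the setting, with 14 and 5 called by DESeq2, 19 and 9 with the repeated VZ file kept, and 22 and 12 in a fit of only the libraries compared. The median log2 difference was 0.05 over the members and 0.07 over all features. Of the members called, 14 had also been called at E28, and each lay in the same direction at both stages. The 11 of these that were higher in the neuron-rich layers make up 44% of those called so at E28 and 84.62% of those at E42, and the 3 that were higher in the germinal layers make up 75% and 30%. Several of the 11, named below, passed the filter on low counts only through neuron-rich libraries, so the filter favoured this direction for them. Their agreement between the stages is therefore not independent support for it. How often all features called at both stages agreed in direction is not given here. Over all features tested, 9.22% were higher in the neuron-rich layers at both stages, 53.8% of those called so at E28 and 63.88% of those at E42, and 9.95% were higher in the germinal layers at both stages, 53.66% and 63.7%.

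The members named after KCNV1 were higher in the neuron-rich layers of E42. LINC-KCNV1-1 measured 0.0296 CPM in the VZ library, 0.264 and 0.0358 in the ISVZ, 0.0773 and 0 in the OSVZ, 0.828 and 0.335 in the IZ, 3.29 and 1.61 in the CPi, 1.83 and 1.7 in the CPo, and 0.727 and 0.627 in the MZ. The highest germinal library stayed below the lowest neuron-rich one (log2 difference −4.07 ± 0.85, 5 against 8 libraries, edgeR adjusted p = 0.000423). KCNV1-AS-1 had 3 counts in the germinal libraries and lay between 0.256 and 1.11 CPM in the neuron-rich ones (ratio 48, 95% counting interval 16.3 to 234, edgeR adjusted p = 0.000182), again without overlap. LINC-KCNV1-2, not called at E28, had 6 germinal and 171 neuron-rich counts (edgeR adjusted p = 0.00345). LINC-KCNV1-1, KCNV1-AS-1 and LINC-KCNV1-2 passed the filter on low counts only through neuron-rich libraries. The filter thus favoured this direction, and the p-values and ratio are not independent support for it.

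HCN2-AS-2 again separated the sides, at 0.118 CPM in the VZ library, 0.0479 and 0.466 in the ISVZ and 0.348 and 0.597 in the OSVZ, and between 1.08 and 1.59 CPM in the neuron-rich libraries. Its log2 difference was −2.45 ± 0.64 (edgeR adjusted p = 0.00365). KCND3-AS-3 was higher in the neuron-rich layers by a smaller margin, with germinal libraries of 1.66, 2.81, 3.55, 4.03 and 4.3 CPM and neuron-rich ones of 2.42, 7.87 and 11.1 CPM at the lowest, median and highest (log2 difference −1.25 ± 0.32, edgeR adjusted p = 0.00267). Of the CPo libraries, 1 at 2.42 CPM lay within the germinal range and the other at 4.84 CPM lay above it, while the CPi, IZ and MZ libraries all lay at 7.26 CPM or more. LINC-KCNH8-6, KCNK12-AS-2 and KCNMA1-AS-5 had 12, 13 and 10 germinal counts against 234, 392 and 250 neuron-rich counts (edgeR adjusted p = 0.000155, 0.00251 and 0.00723). KCNMA1-AS-2 had 9 against 127 and KCNMB4-AS-1 had 6 against 81 (edgeR adjusted p = 0.0171 and 0.0321). KCNK12-AS-2, KCNMA1-AS-5, KCNMA1-AS-2 and KCNMB4-AS-1 passed the filter on low counts only through neuron-rich libraries, so the filter favoured this direction. Without replicate 1 of the MZ, the calls of KCNMA1-AS-5, KCNMA1-AS-2 and KCNMB4-AS-1 ended (edgeR adjusted p = 1, 0.088 and 1), and that of KCNMB4-AS-1 ended under 9 of 20 alternatives. In all, 15 members were called without that MZ library, and 15 without the VZ library of E42.

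The single VZ library of E42 carried part of the E42 calls. KCNQ3-AS-6 measured 0.355 CPM in it, 1.53 and 1.79 in the ISVZ, 3.9 and 2.17 in the OSVZ, and 2.16 to 4.77 in the neuron-rich libraries, with a log2 difference of −1.53 ± 0.28 (edgeR adjusted p = 8.14e-05) that was −0.71 without the VZ library (edgeR adjusted p = 0.0521). SCN3A-AS-2 measured 0.0592 CPM in the VZ, 2.08 and 1.54 in the ISVZ and 0.387 and 1.17 in the OSVZ, against 0.29 to 2.18 CPM in the neuron-rich libraries. Its log2 difference of −1.51 ± 0.49 (edgeR adjusted p = 0.0182) was −0.16 without the VZ library (edgeR adjusted p = 0.867), and the call ended under 5 of 20 alternatives. LINC-KCNA4-5 was highest in the VZ library, and KCNA4 forms an A-type potassium channel. It measured 8.77 CPM in the VZ, 2.92 and 1.84 in the ISVZ, 2.17 and 1.72 in the OSVZ, and 0.337, 1.28 and 1.89 CPM at the lowest, median and highest neuron-rich library (log2 difference 1.39 ± 0.44, edgeR adjusted p = 0.0152). Without the VZ library the difference was 0.64 (edgeR adjusted p = 0.343).

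Members named after KCNG1 and KCNN2 were higher in the germinal layers of E42. LINC-KCNG1-3 measured 3.64 CPM in the VZ, 1.22 and 1.18 in the ISVZ and 0.309 and 3.51 in the OSVZ, and its neuron-rich libraries lay between 0 and 0.579 CPM (log2 difference 4.15 ± 0.80, edgeR adjusted p = 0.000162). LINC-KCNG1-4 measured 1.48 CPM in the VZ, 0.815 and 0.502 in the ISVZ and 0.116 and 1.12 in the OSVZ, against 0 to 0.391 CPM (log2 difference 3.28 ± 0.83, edgeR adjusted p = 0.00302). The OSVZ replicates thus differed more than the ISVZ replicates for both members. KCNN2 is a small-conductance calcium-activated potassium channel whose current follows bursts of calcium entry. KCNN2-AS-8 and KCNN2-AS-2 passed the filter on low counts only through germinal libraries of E42, so the filter fixed the direction of their difference here. KCNN2-AS-8 measured 3.5 CPM in the VZ, 0.815 and 0.394 in the ISVZ and 1.7 and 0.473 in the OSVZ, above every neuron-rich library, which reached 0.153 CPM at most (ratio of mean CPM 22.1, edgeR adjusted p = 0.000429), and without the VZ library the ratio was 13.6. KCNN2-AS-2 measured 0.0358 to 1.69 CPM in the germinal and 0 to 0.103 CPM in the neuron-rich libraries (log2 difference 4.00 ± 1.09, edgeR adjusted p = 0.00706). Its germinal counts lay mostly in replicate 1, with 57 in the VZ, 35 in the ISVZ and 14 in the OSVZ. Replicate 2 had 2 each in the ISVZ and OSVZ, against 2, 4, 0 and 2 in its CPi, CPo, IZ and MZ, so it did not show the difference. KCNH7-AS-6 lay at 0.747 to 3.05 CPM in the germinal and 0.0723 to 1.02 CPM in the neuron-rich libraries (log2 difference 1.503 ± 0.56, edgeR adjusted p = 0.0444), and this call ended under 15 of 20 alternatives, with adjusted p from 0.0525 to 0.294 in those.

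**Figure D3:**
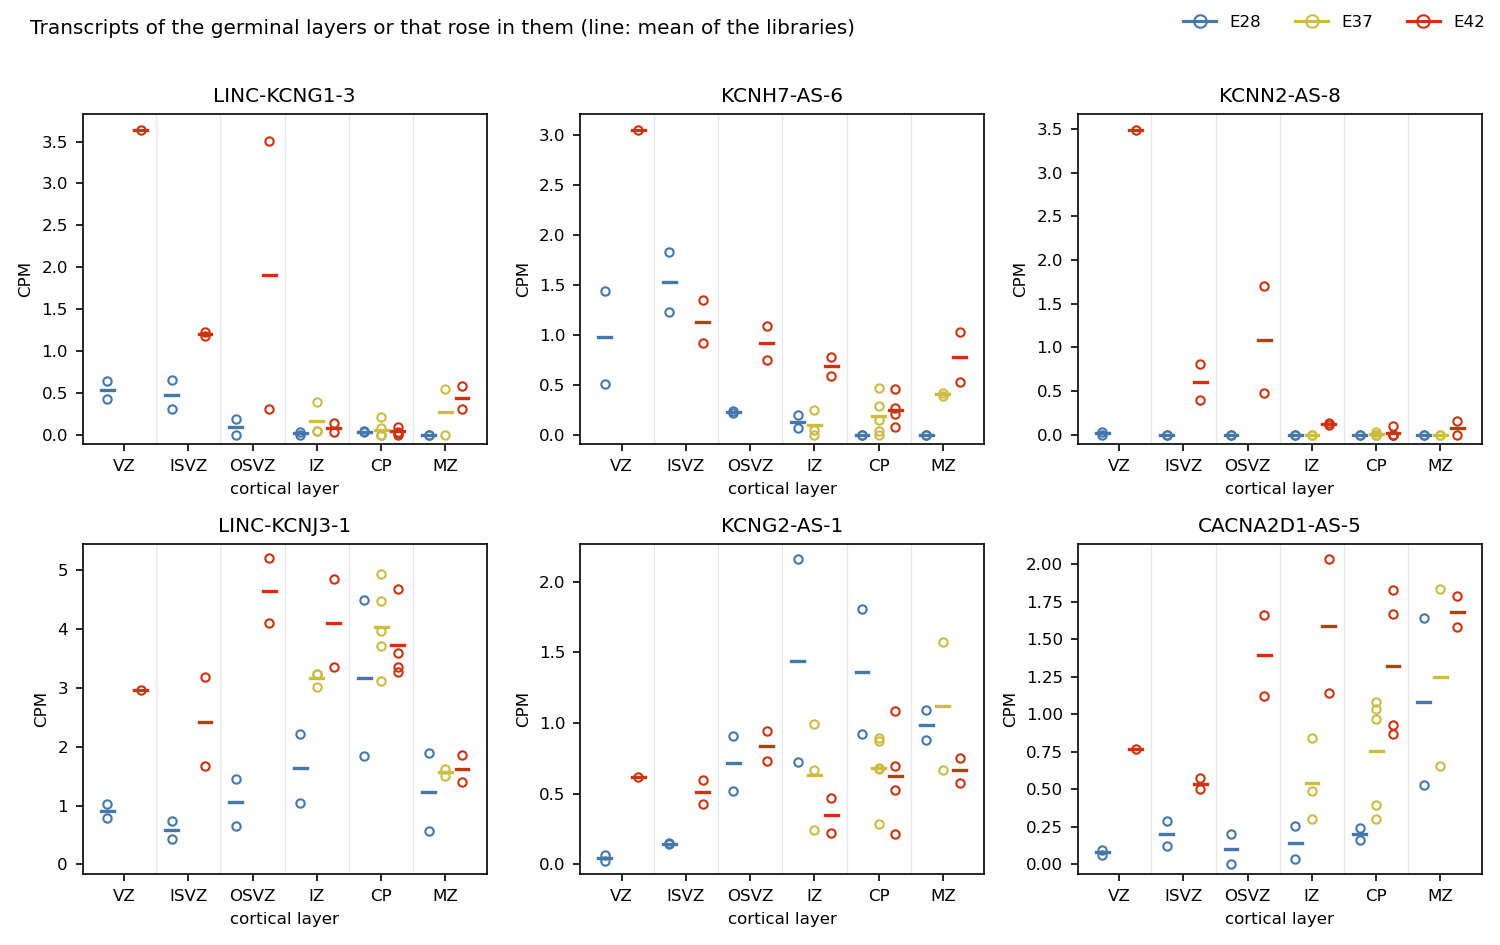
CPM of LINC-KCNG1-3, KCNH7-AS-6, KCNN2-AS-8, LINC-KCNJ3-1, KCNG2-AS-1 and CACNA2D1-AS-5 by layer and stage, with 1 point per library and a line at the mean of each layer. LINC-KCNG1-3 and KCNN2-AS-8 have their highest points in the germinal layers of E42, and KCNN2-AS-8 had 1 count in all germinal libraries of E28 together.

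Whether the gap of germinal to neuron-rich layers itself changed from E28 to E42 was tested as an interaction in the same model. Of the 111 members, 4 shifted toward the germinal layers (3.6%) and 1 toward the neuron-rich layers (0.901%), against 6.67% and 8.3% of all features and 3.76% and 1.1% of LINC and AS features. KCNG2-AS-1 shifted toward the germinal layers by 3.17 ± 0.69 on the log2 scale (edgeR adjusted p = 0.00156). Its germinal mean went from 0.302 to 0.666 CPM between E28 and E42 while its neuron-rich mean went from 1.26 to 0.568 CPM, and at E42 neither side was called higher. KCNH7-AS-6 shifted toward the neuron-rich layers, by −4.36 ± 1.18 (edgeR adjusted p = 0.0109), but the CP and MZ of E28 had no count, so the size of that shift depends on the prior count. LINC-KCNA4-5 shifted toward the germinal layers by 2.67 ± 0.71 (edgeR adjusted p = 0.00941), and this call ended without replicate 2 of the CP at E28 (1.75, edgeR adjusted p = 0.136) and without the VZ library of E42 (1.92, edgeR adjusted p = 0.0655). LINC-KCNJ3-1 shifted by 1.30 ± 0.44 (edgeR adjusted p = 0.0438), a call that ended under 19 of 32 alternatives. SCN3B-AS-1 also shifted toward the germinal layers (edgeR adjusted p = 0.0246), with 2 germinal counts at E28 and a call that ended under 6 of 32 alternatives. The interaction calls of KCNG2-AS-1 and KCNH7-AS-6 held under each of the 32 alternatives, and 2 members were called without replicate 2 of the CP at E28 and 3 without replicate 1 of the ISVZ at E42.

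Across the neuron-rich layers, 10 members rose from E28 to E42 and 2 fell (9.01% and 1.8% of 111), against 17.1% and 10.2% of all features. KCND3-AS-3 rose at both steps. Its neuron-rich libraries measured 1.23, 2.06 and 3.31 CPM (lowest, median and highest of 6) at E28, 2.24, 4.61 and 7.41 CPM (of 10) at E37, and 2.42, 7.87 and 11.1 CPM (of 8) at E42. The log2 change was 1.15 ± 0.28 from E28 to E37 (edgeR adjusted p = 0.00341), 0.78 ± 0.25 from E37 to E42 (edgeR adjusted p = 0.0329) and 1.93 ± 0.29 over both (edgeR adjusted p = 7.6e-06). The ranges of all 3 stages overlapped, since the CPo libraries of E42 and the CP and CPo libraries of E37 stayed low. The step from E37 to E42 ended as a call under 11 of 24 alternatives, and the step with the replicate number as a block was 0.81 (edgeR adjusted p = 0.0594). Between stages that block joins libraries of different embryonic days, so it says nothing about pairing.

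From E28 to E37, 4 members rose and 3 fell (3.6% and 2.7%, against 12% and 10.4% of all features), and from E37 to E42, 8 rose and 0 fell (7.21% and 0%, against 10.3% and 5.3%). In the later step 17 members had an unadjusted p under 0.05 in either direction, and DESeq2 called 8 as risen and 1 as fallen. LINC-KCNV1-1 rose from 0.082, 0.205 and 0.397 CPM (lowest, median and highest) at E28 to 0.0262, 1.17 and 2.52 CPM at E37, and measured 0.335, 1.22 and 3.29 CPM at E42. Its log2 change was 1.90 ± 0.61 from E28 to E37 (edgeR adjusted p = 0.0251) and 2.18 ± 0.62 from E28 to E42 (edgeR adjusted p = 0.00851), and the first of these was 0.48 without replicate 2 of the MZ at E37 (edgeR adjusted p = 0.85) and ended as a call under 5 of 22 alternatives. KCNV1-AS-1 rose from E28 to E42 by 2.58 ± 0.73 (edgeR adjusted p = 0.00903), with libraries of 0 to 0.406 CPM at E28 and 0.256 to 1.11 CPM at E42. LINC-KCNV1-2, named after the same gene, was called over the neuron-rich layers as well, with 17 counts at E28 and 171 at E42 (edgeR adjusted p = 0.0331).

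The opposite course was taken by KCNQ3-AS-6, SCN3A-AS-2 and KCNQ3-AS-2 between E28 and E37. KCNQ3-AS-6 fell from 3.19, 5.08 and 5.77 CPM (lowest, median and highest) to 1.86, 3.02 and 3.97 CPM, a log2 change of −0.67 ± 0.22 (edgeR adjusted p = 0.0296) that with the replicate number as a block was −0.52 (edgeR adjusted p = 0.136), and that ended as a call under 10 of 22 alternatives. SCN3A-AS-2 fell from 1.15, 2.03 and 3.18 CPM to 0.445, 0.853 and 1.93 CPM (log2 change −1.31 ± 0.36, edgeR adjusted p = 0.00898). From E28 to E42 neither of these was called. KCNG2-AS-1 fell over that whole interval, from 0.726, 1.01 and 2.16 CPM to 0.213, 0.552 and 1.08 CPM (log2 change −1.25 ± 0.43, edgeR adjusted p = 0.0297), a call that ended under 10 of 20 alternatives.

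CACNA2D1-AS-5 and KCNH7-AS-6 rose in the neuron-rich layers. CACNA2D1 is an alpha2delta subunit that brings calcium channels to the membrane. CACNA2D1-AS-5 measured 0.258 and 0.0345 CPM in the IZ, 0.164 and 0.243 in the CP and 1.64 and 0.529 in the MZ at E28, and 0.867, 1.62 and 2.03 CPM at the lowest, median and highest neuron-rich library at E42 (log2 change 2.22 ± 0.53, edgeR adjusted p = 0.0018). The E28 libraries of the MZ were already near the E42 range, and the gap between the stages was wider in the IZ and CP. KCNH7-AS-6, with 8 counts in the neuron-rich libraries of E28, had 55 at E37 and 221 at E42 (mean 0.0437, 0.203 and 0.49 CPM, edgeR adjusted p = 0.00574 from E28 to E37 and 5.47e-05 from E28 to E42). LINC-SCN2B-1, named after a sodium channel beta subunit, rose from E37 to E42 by 2.72 ± 0.67 (edgeR adjusted p = 0.00572). In the MZ it measured 0.222 and 0.341 CPM at E37 and 1.74 and 1.25 CPM at E42, and in the IZ 0.0487, 0 and 0.0432 CPM at E37 and 0.236 and 0.837 CPM at E42. Leaving out 1 library changed the count of calls from E37 to E42 most: 1 remained without replicate 1 of the IZ or of the MZ at E42, 2 without E37 MZ replicate 3, 3 without replicate 1 of the CPi or replicate 2 of the CPo at E42, 4 without E37 IZ replicate 1 or 2, E37 MZ replicate 2 or E42 CPo replicate 1, and 5 without E42 IZ replicate 2 or E42 MZ replicate 2. For E28 to E42 it was 7 without replicate 1 of the MZ at E42, and for E28 to E37 it was 4 without E37 MZ replicate 2.

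In the germinal layers, 21 members rose from E28 to E42 and 0 fell (18.9% and 0% of 111), against 17% and 11.9% of all features and 10.9% and 1.55% of LINC and AS features. An unadjusted p under 0.05 was reached by 28 members in either direction, and DESeq2 called 18 as risen and 0 as fallen. The median log2 change was 1.39 over the members and 0.24 over all features. Members that passed the filter on low counts only through germinal libraries of E42 could be called only as risen, and how many did so was not counted. For 9 of the 21, every E42 library lay above every E28 library. These are 8.11% of the members, against 5.71% of all features that were called as risen without overlap and 4.01% of LINC and AS features. With the VZ left out at both stages 11 members were called, and without 1 library at a time the number ranged from 14, without E28 VZ replicate 1 or E42 OSVZ replicate 2, to 29, without E42 VZ replicate 1.

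LINC-KCNJ3-1 measured 1.02 and 0.791 CPM in the VZ, 0.433 and 0.731 in the ISVZ and 0.66 and 1.45 in the OSVZ at E28, and 2.96 in the VZ, 3.19 and 1.67 in the ISVZ and 4.1 and 5.2 in the OSVZ at E42. Each layer was higher at E42 and the stages did not overlap (log2 change 1.96 ± 0.33, 5 against 6 libraries, edgeR adjusted p = 3.47e-05). LINC-KCNJ3-2 rose from 0.274 to 0.51 CPM over the E28 libraries to 0.699 to 2.02 CPM over those of E42, also without overlap (log2 change 1.81 ± 0.44, edgeR adjusted p = 0.00191). KCND3-AS-3 measured 0.319 and 0.915 CPM in the VZ, 1.77 and 0.913 in the ISVZ and 0.138 and 0.724 in the OSVZ at E28, and 3.55 in the VZ, 4.03 and 4.3 in the ISVZ and 1.66 and 2.81 in the OSVZ at E42. It rose by 2.17 ± 0.33 on the log2 scale (edgeR adjusted p = 6.87e-06), with 1 ISVZ library of E28 above the lowest OSVZ library of E42. CACNA2D1-AS-5 rose from 0 to 0.288 CPM over the E28 libraries to 0.502 to 1.66 CPM at E42 (log2 change 2.77 ± 0.60, edgeR adjusted p = 0.000693).

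LINC-KCNA4-5 rose by 3.11 ± 0.56 (edgeR adjusted p = 6.71e-05), from 0.893 and 3.29 CPM in the VZ, 1.23 and 2.13 in the ISVZ and 0.0275 and 0 in the OSVZ to 8.77 in the VZ, 2.92 and 1.84 in the ISVZ and 2.17 and 1.72 in the OSVZ. The OSVZ, near 0 at E28, was the layer with the largest ratio between the stages. Its E28 libraries had 1 and 0 counts, so the size of the log2 change rests on a layer near the floor. The ratio of mean CPM over the germinal libraries was 2.76. It was 1.715 without the VZ library of E42, which held 296 of the 646 counts. LINC-KCNG1-3 rose by 2.79 ± 0.79 (edgeR adjusted p = 0.00827), a call that ended without replicate 2 of the OSVZ at E42 (1.92, edgeR adjusted p = 0.0861). KCNG2-AS-1 rose by 1.92 ± 0.53 (edgeR adjusted p = 0.00659), from 0.0247 to 0.908 CPM at E28 to 0.43 to 0.946 CPM at E42, and with the VZ left out the change was 1.00 (edgeR adjusted p = 0.238). LINC-KCNG1-4 and HCN2-AS-2 were called as well (edgeR adjusted p = 0.035 and 0.0273), and their calls ended under 11 and 8 of 18 alternatives. Members near 0 in the germinal layers of E28 were led by KCNN2-AS-8 and KCNN2-AS-2. Both passed the filter on low counts only through germinal libraries of E42, so the filter fixed the direction of their change. KCNN2-AS-8 had 1 count at E28 and 237 at E42 (ratio 244, 95% counting interval 43.4 to 9681, edgeR adjusted p = 6.73e-05), and KCNN2-AS-2 had 0 and 110 counts and was at least 37.8-fold higher at E42 (edgeR adjusted p = 0.000578). KCNIP3-AS-2, named after an auxiliary subunit that binds A-type channels, had 2 counts at E28 and 85 at E42 (ratio 43.8, 95% counting interval 11.8 to 367, edgeR adjusted p = 0.00105). The single VZ library of E42 held 118 of the 237 counts of KCNN2-AS-8, 57 of the 110 of KCNN2-AS-2 and 44 of the 85 of KCNIP3-AS-2. Without it the ratio was 148 for KCNN2-AS-8 and 25.5 for KCNIP3-AS-2, and the bound for KCNN2-AS-2 was 21.9-fold. The other E42 counts of KCNN2-AS-2 were 35 and 14 in replicate 1 of the ISVZ and OSVZ, but 2 and 2 in replicate 2. Its rise thus rests on replicate 1.

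The MZ was compared with the CP over the 3 stages together, 6 against 11 libraries. Of the 111 members, 11 were higher in the MZ and 6 in the CP (9.91% and 5.41%), against 15% and 14.3% of all features. Of the 39 LINC members tested, 10 were higher in the MZ and 1 in the CP (25.6% and 2.56%). Of the 72 AS members tested, 1 was higher in the MZ and 5 in the CP (1.39% and 6.94%). Over all LINC and AS features together the shares were 5.76% and 3.44%, and they were not computed for each kind alone. The LINC members higher in the MZ include 2 each named after KCNA4, KCNMB2 and KCNS3, which do not count as separate observations. The difference between the kinds of name was not tested. With the replicate number as a block, 6 members were higher in the MZ and 7 in the CP.

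LINC-KCNA4-5 was the member with the most counts among those higher in the MZ. In the MZ it measured 3.58 and 2.73 CPM at E28, 1.67 and 4.01 at E37 and 1.89 and 1.88 at E42. The CP had 0.082 and 1.03 CPM at E28, 0.429 undivided, 0.899 and 0.229 in the CPi and 0.897 and 0.393 in the CPo at E37, and 0.905 and 1.08 in the CPi and 0.337 and 0.772 in the CPo at E42. Every MZ library lay above every CP library (log2 difference 2.05 ± 0.40, edgeR adjusted p = 0.00016). LINC-KCNS3-3, named after a silent subunit, also separated the layers, with 0.182, 0.435 and 0.794 CPM at the lowest, median and highest MZ library against 0 to 0.179 CPM in the CP (log2 difference 3.27 ± 0.73, edgeR adjusted p = 0.000746). LINC-SCN2B-1 measured 0 and 0.353 CPM in the MZ at E28, 0.222 and 0.341 at E37 and 1.74 and 1.25 at E42, and reached at most 0.25 CPM in the CP (ratio of mean CPM 7.16, edgeR adjusted p = 0.000632), and the ratio was 4.77 without replicate 1 of the MZ at E42. LINC-KCNMB2-9, LINC-KCNJ10-1 and LINC-CACNG2-1, named after a potassium channel beta subunit, an inward rectifier known from glia and a calcium gamma subunit of the stargazin family, had 86, 112 and 29 counts in the MZ and 8, 16 and 5 in the CP (edgeR adjusted p = 0.00267, 0.00743 and 0.00947). Their ratios of mean CPM were 11.5, 9.04 and 12.8. Single MZ libraries held 33, 82 and 10 of these counts (replicate 3 of E37, replicate 1 of E42 and replicate 2 of E37). Without that library the ratios were 7.12, 6.69 and 8.05. LINC-CACNG2-1 passed the filter on low counts only through replicate 2 of the MZ at E37, so the filter favoured this direction.

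In the other direction, LINC-KCNJ3-1 was lower in the MZ. Its MZ libraries measured 0.576, 1.56 and 1.9 CPM at the lowest, median and highest, and its CP libraries 1.84, 3.71 and 4.93 CPM, so 2 MZ libraries lay above the lowest CP library (log2 difference −1.30 ± 0.29, edgeR adjusted p = 0.000706). KCNV1-AS-1 measured 0, 0.189 and 0.794 CPM in the MZ and 0.287, 0.786 and 1.44 CPM in the CP (log2 difference −2.33 ± 0.71, edgeR adjusted p = 0.0136). KCNK12-AS-2 measured 0, 0.107 and 0.957 CPM in the MZ and 0.0897, 0.792 and 3.49 CPM in the CP (log2 difference −2.54 ± 0.80, edgeR adjusted p = 0.0166), and KCNMA1-AS-5 measured 0, 0.0967 and 0.529 CPM against 0.0271, 0.432 and 1.95 CPM (log2 difference −2.21 ± 0.73, edgeR adjusted p = 0.0215). The call of KCNMA1-AS-5 ended under 6 of 23 alternatives, with −0.71 without E28 CP replicate 1 (edgeR adjusted p = 0.695) and −1.998 with the replicate block (edgeR adjusted p = 0.0503), and 10 members were called in all without E37 MZ replicate 3.

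**Figure D4:**
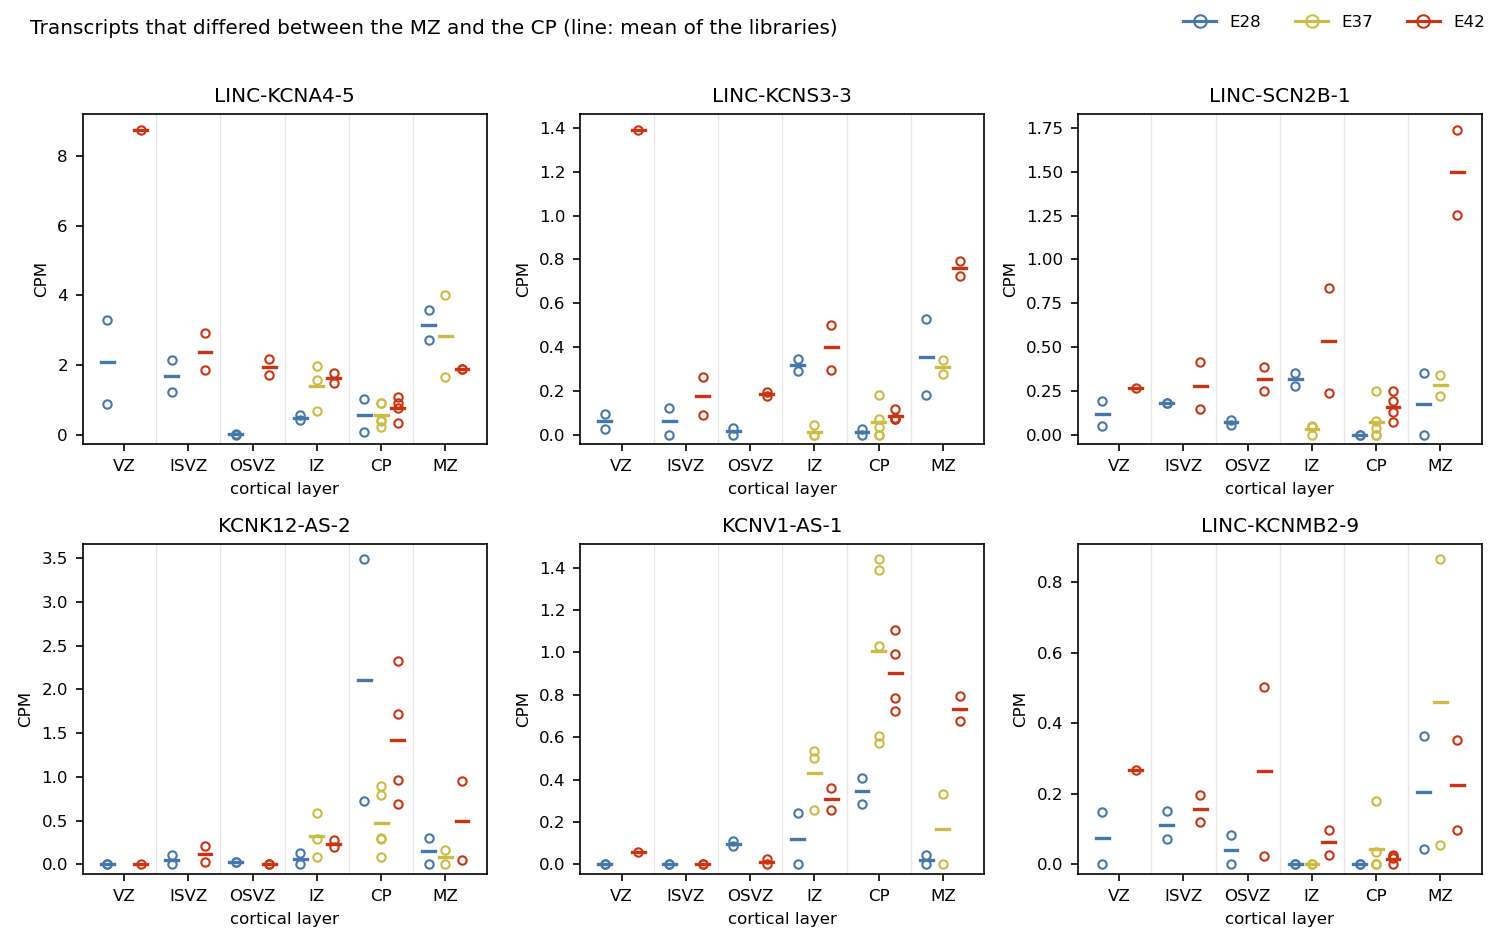
CPM of LINC-KCNA4-5, LINC-KCNS3-3, LINC-SCN2B-1, KCNK12-AS-2, KCNV1-AS-1 and LINC-KCNMB2-9 by layer and stage, with 1 point per library and a line at the mean of each layer. The MZ points of LINC-KCNA4-5 and LINC-KCNS3-3 lie above all CP points, and those of KCNK12-AS-2 and KCNV1-AS-1 are mostly below them.

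Few members separated the IZ from the CP, with 2 higher in the IZ and 2 in the CP (1.8% each, against 10% and 9.57% of all features). KCNK12-AS-2 was higher in the CP, at 0, 0.195 and 0.587 CPM at the lowest, median and highest of 7 IZ libraries against 0.0897, 0.792 and 3.49 CPM in 11 CP libraries (log2 difference −2.60 ± 0.76, edgeR adjusted p = 0.0146). It was thus lower in both neighbours of the CP, and at E42 it was at 0 in the VZ and both OSVZ libraries. KCNAB1-AS-9, named after an auxiliary subunit, had 4 counts in the IZ and 96 in the CP (edgeR adjusted p = 0.0234). Its highest libraries were those of the CPo at E37, at 0.628 and 0.643 CPM, and 1 of the CPo at E42, at 0.772 CPM. LINC-SCN2B-1 and LINC-KCNG1-4 were higher in the IZ (edgeR adjusted p = 0.048 and 0.0317), and the call of LINC-KCNG1-4 ended under 9 of 24 alternatives, the replicate block among them (edgeR adjusted p = 1). With that block, 0 members were higher in the IZ and 3 in the CP. The number of calls was 0 without E42 IZ replicate 2, 1 without E28 IZ replicate 1 and 2 without either CP library or IZ replicate 2 of E28.

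Between the subventricular zones, over E28 and E42 with 4 libraries each, 1 member was higher in the OSVZ and 2 in the ISVZ (0.901% and 1.8%, against 2.64% and 2.68% of all features). KCNQ3-AS-6 was higher in the OSVZ, at 3.03 and 3.73 CPM at E28 and 3.9 and 2.17 CPM at E42, than in the ISVZ, at 1.12 and 1.4 CPM and 1.53 and 1.79 CPM. The layers did not overlap (log2 difference 1.14 ± 0.31, edgeR adjusted p = 0.023). LINC-KCNA4-5 was higher in the ISVZ, mainly through its low OSVZ level at E28 (log2 difference −3.44 ± 0.71, edgeR adjusted p = 0.00275). KCND3-AS-3 was higher in the ISVZ too, at 1.77, 0.913, 4.03 and 4.3 CPM against 0.138, 0.724, 1.66 and 2.81 CPM (log2 difference −1.26 ± 0.38, edgeR adjusted p = 0.0484). The calls of KCNQ3-AS-6 and KCND3-AS-3 ended under 7 and 8 of 14 alternatives, and 1 or 2 members were called without any 1 of the libraries, with 1 without replicate 1 of the ISVZ at E28, either ISVZ replicate of E42 or replicate 1 of the OSVZ at E42.

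**Figure D5:**
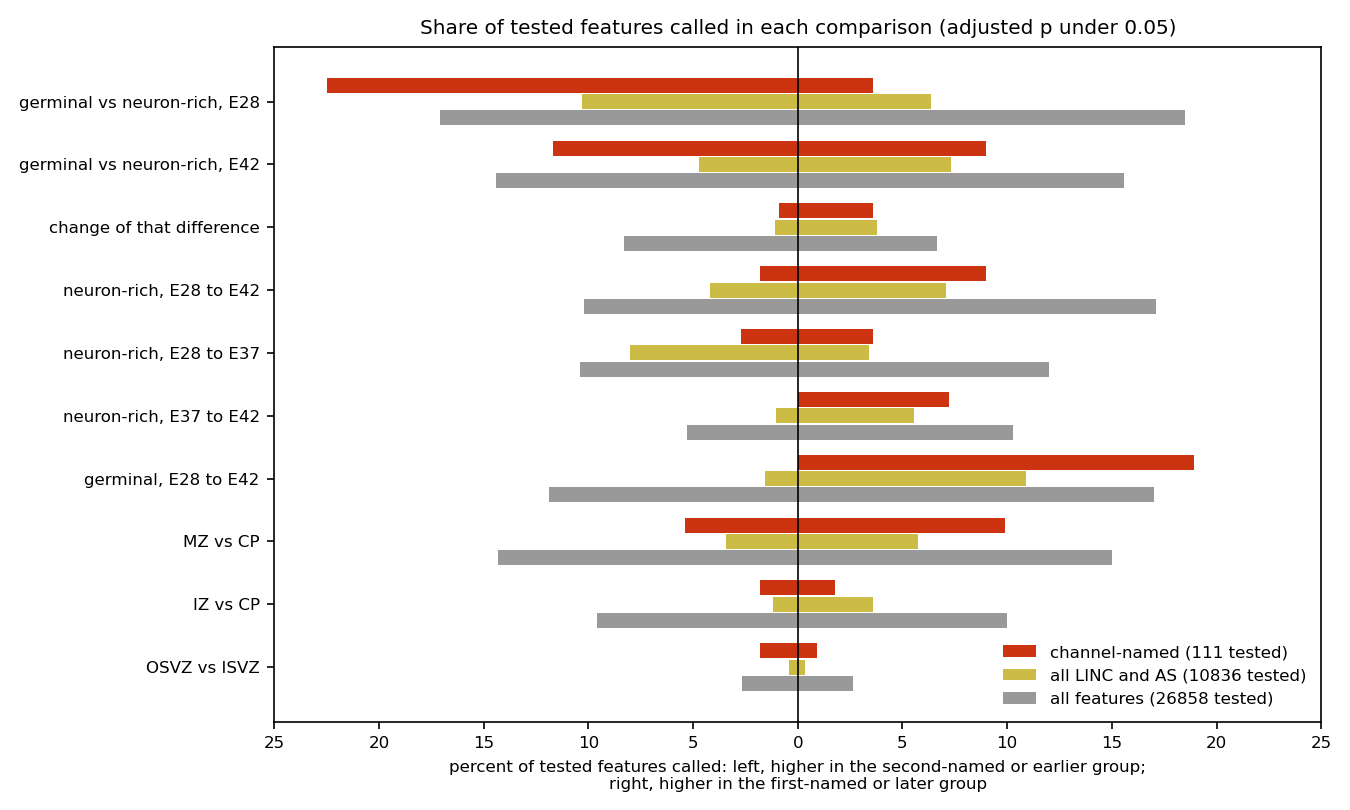
Percent of features called in each of the 10 comparisons and in each direction, for the 111 tested members, for all tested LINC and AS features and for all 26858 features tested. The members' share is above that of all features for higher levels in the neuron-rich layers at E28 (22.5% against 17.1%), close to it for a rise in the germinal layers (18.9% against 17%), and smaller in each other comparison and direction.

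Some members with the same symbol were called together. There were 26 cases in which 2 or more members named after 1 gene were called in the same comparison, over 12 symbols, and in all 26 they lay in the same direction. In the germinal layers from E28 to E42 and the neuron-rich layers from E37 to E42 no member fell, so the direction there was fixed. Pairs also recur over comparisons that share libraries, and the share over all LINC and AS features was not computed. Members of 1 symbol may share transcripts or reads, because their positions were not in the files, so they do not count as separate observations. Over the 35 libraries, Spearman's rho was 0.747 to 0.833 among the members named after KCNV1, 0.608 to 0.766 among those named after KCNMA1, and 0.629 between LINC-KCNG1-3 and LINC-KCNG1-4. It was 0.716 between LINC-KCNJ3-1 and LINC-KCNJ3-2 but −0.035 and 0.0095 between these and LINC-KCNJ3-9. It was 0.134 to 0.253 among the members named after KCNH7, 0.373 for KCNQ3, 0.304 for SCN3A, 0.0893 for CACNA2D1 and −0.117 for SCN2B. These values describe libraries that share stage, layer and depth, and low counts lower them.

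The number of members called at least once over the 10 comparisons was 61 of 111, and 50 were called in none. Over all features tested, 66.6% were called at least once, and over LINC and AS features 43%, against 55% of the members. KCND3-AS-3 was called in 7 comparisons, and KCNH7-AS-6 and LINC-KCNA4-5 in 5 each. Noncoding features named in the same way after other ion channels and channel partners, such as TRP, chloride and ryanodine channels and ankyrins, gave 424 features with 66 tested. Of these, 3 were higher in the germinal and 13 in the neuron-rich layers at E28 (4.55% and 19.7%), against 3.6% and 22.5% of the members. At E42 it was 5 and 5 (7.58% each), against 9.01% and 11.7%. In the germinal layers from E28 to E42, 9 rose and 1 fell (13.6% and 1.52%), against 18.9% and 0%. Over all features these shares were 18.5% and 17.1% at E28, 15.6% and 14.4% at E42, and 17% and 11.9% over time.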

How the data were processed

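RNA sequencing counts of laser-dissected layers of fetal tree shrew cortex were used. The authors mapped the reads to the tree shrew genome, counted them per annotated feature with HTSeq and deposited whole-number counts without normalization, with the counter's lines for unassigned reads, which were left out of library sizes (no feature 8.556% to 14.05%, ambiguous 14.99% to 19.06% of lines). The submitters' processing notes also name HISAT2 and SAMtools. Each library's layer and stage came from its label. Among 630 pairs of libraries 1 pair was identical, the second VZ replicates of E28 and E42, and the file labelled E42 was left out of the 35 libraries fitted.

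Features were filtered with filterByExpr (minimum count 10, by group), which left 26858. The smallest groups held 1 library, so a feature could pass through a single library where it was high. For the tests, 1 edgeR 4.0.16 model (R 4.3.3, limma 3.58.1) was fitted with TMM factors and a mean for each of 18 groups (17 residual degrees of freedom). The robust quasi-likelihood test was used. Benjamini-Hochberg adjustment was made over all features tested in a comparison, at 0.05. CPM are counts relative to a library's TMM-scaled size. In the fitted differences the germinal side weighted the VZ, ISVZ and OSVZ alike, and the neuron-rich side the IZ, CP and MZ. The CP was the mean of its 5 libraries at E37 and of the CPi and CPo at E42. Mean CPM and ratios of mean CPM are plain means over libraries. Where a side had 0 counts, the bound is the ratio of pooled counts to a floor of 3 counts over the group, and with 1 to 3 counts an exact 95% counting interval of the ratio of pooled counts is given. PCR copies cannot be told from molecules, so these cover counting error only.

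The members, the lists and the rule for naming were chosen with earlier results of these data known. The rule named the 10 members with the highest mean CPM, in each comparison up to 5 called members per direction with the largest log2 difference among those with a mean of at least 0.5 CPM, members called between germinal and neuron-rich layers at both E28 and E42, and members whose difference changed between these stages. A called member is not reported here by name. The labels do not say whether libraries with the same replicate number share an animal, so p-values measure the spread between these samples, which may be technical. Deviations of same-numbered libraries from their group means had a correlation over 0.1 for all 15 layer pairs of E28 (0.2779 to 0.4647). At E37 this held for 6 of 6 pairs (0.2342 to 0.499) and at E42 for 12 of 15 (−0.1653 to 0.3734). On these values alone the number was taken to pair libraries at E28 and E37. The main model did not use this pairing and treated all libraries as independent, so its p-values do not account for it. The number entered only as a block in an alternative.

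Alternatives were the DESeq2 1.42.0 Wald test, DESeq2 size factors in edgeR, no filter, only the libraries compared, a log2 difference above 1 in size, the VZ left out, the replicate number as a block (with stage within a stage), the repeated VZ file kept, and each library left out in turn with the dispersion trend and tested features of the full fit. In the comparisons over time, the block joined equal numbers of different embryonic days, so calls that held or ended under it there say nothing about pairing. Data handling and plots used Python 3.11.15, pandas 2.3.3 and matplotlib 3.10.9.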

Additional observations from a re-analysis of the deposited data

Results flagged for a closer look

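The germinal minus neuron-rich difference changed from E28 to E42 for 5 members by the interaction test (edgeR's quasi-likelihood test, Benjamini-Hochberg adjusted over all features tested). On the log2 scale, KCNG2-AS-1 changed by 3.17 toward the germinal layers (SE 0.69, adjusted p = 0.00156). LINC-KCNA4-5 changed by 2.67 in the same direction (SE 0.71, adjusted p = 0.00941). SCN3B-AS-1 changed by 4.91 (SE 1.49, adjusted p = 0.0246) and LINC-KCNJ3-1 by 1.30 (SE 0.44, adjusted p = 0.0438), also toward the germinal layers. KCNH7-AS-6 changed by −4.36, toward the neuron-rich layers (SE 1.18, adjusted p = 0.0109). SCN3B-AS-1 and KCNH7-AS-6 had no count in some layers of E28, so the size of their changes depends on the prior count.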

How the results depend on the processing

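No value changed direction among those tracked. Of 72 calls of named members, 34 held under every alternative, 20 ended under 1 to 3 of them and 18 under more. With the VZ left out, 19 members were called at E28 against 29, 3 against 5 for the change of the difference, and 11 against 21 for the germinal layers over time. A fit of only the libraries compared called 16 at E28, where 38 members passed its filter, and 4 against 7 in the neuron-rich layers from E28 to E37, for which DESeq2 called 13. For the change of the difference, 3 were called without the filter and 3 with the repeated VZ file, which also left 5 against 8 called in the neuron-rich layers from E37 to E42. The cause of these shifts was not tested. With 1 library left out at a time, the number called ranged from 21 to 29 (E28) and 15 to 22 (E42) for germinal against neuron-rich layers, 2 to 7 for the change of that difference, 7 to 15, 4 to 9 and 1 to 10 for the neuron-rich layers (E28 to E42, E28 to E37 and E37 to E42), 14 to 29 for the germinal layers over time, 10 to 19 for the MZ, 0 to 6 for the IZ and 1 to 2 for the OSVZ. With the replicate block the numbers were 29 at E28, 26 at E42, 6 for the change of the difference, 13, 10 and 7 for the neuron-rich layers, 22 for the germinal layers, 13 for the MZ, 3 for the IZ and 3 for the OSVZ, and apart from KCNQ3-AS-6, KCND3-AS-3, KCNMA1-AS-5 and LINC-KCNG1-4 in 1 comparison each, no named call ended under it. Most members had under 1 CPM, so all but large differences of members near 1 read per library may have been missed at this depth.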

Other observations

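Among the tested members that no comparison called, LINC-KCNJ3-9 had a count in all 35 libraries, between 0.177 and 1.39 CPM, and was highest in a CPo library of E37. KCNN4-AS-1 lay between 0 and 1.86 CPM and was highest in an OSVZ library of E42, and SCN1A-AS-1 lay between 0 and 1 CPM and was highest in a CPo library of E42. These were chosen after their values were seen.

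For 9 of the 111 tested members, over 50% of the summed CPM came from a single library. LINC-KCNS3-5 had 90.53% of its level in the first VZ library of E28, out of 48 counts in all, and none of the comparisons called it. LINC-KCNK18-1 had 50.05% of its level in the second ISVZ library of E42.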
